A study of Homo sapiens with 6 samples.

Results

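The genes described here are 10 sensors and kinases of the endoplasmic reticulum (ER) stress pathway, chosen by symbol: the eIF2alpha kinases EIF2AK1, EIF2AK3 and EIF2AK4, the IRE1 sensor ERN1 and its target XBP1, and the membrane-bound transcription factors ATF6, ATF6B, CREB3, CREB3L1 and CREB3L2. All 10 were found among the 54308 genes of the deposited table, each had a value in every library, and all were among the 19306 genes tested. RNA was sequenced from the human osteosarcoma (OS) line 143B in 2 groups of 3 replicates. Vector control (VC) cells had been transfected with a vector plasmid, and CNTNAP4 knockout (KO) cells with a plasmid carrying Cas9 and a guide against CNTNAP4, for 48 h by the labels. The paper also lists a guide sequence for its negative control plasmid. Both groups were grown in the same serum-containing medium without a further agent. The labels call the transfection transient, while the methods give a longer incubation with the plasmid and describe clonal cells sorted after it. The labels do not say which clone a replicate came from, so the p-values measure the spread between these libraries and cannot tell the deletion from differences between clones.

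In the unfolded protein response, misfolded protein in the ER lumen is sensed by PERK (EIF2AK3), IRE1 (ERN1) and ATF6. PERK phosphorylates the translation factor eIF2alpha, as do its relatives HRI (EIF2AK1), which answers heme deficiency and mitochondrial stress, GCN2 (EIF2AK4), which answers amino acid shortage, and PKR (EIF2AK2), which answers double-stranded RNA. This lowers general translation and raises that of ATF4. IRE1 cuts a short intron out of XBP1 mRNA, which shifts the reading frame and yields the active XBP1 factor. ATF6, ATF6B and the CREB3 family travel to the Golgi, where the site-1 and site-2 proteases (MBTPS1, MBTPS2) release their transcription factor domains. The sensors and kinases are switched on as proteins, and XBP1 by the cut in its mRNA, steps that the RNA level of a gene does not show.

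XBP1 had the largest change of the 10 genes, so its regulatory sequences are shown first. The intron that IRE1 removes is annotated in GENCODE 29 in 1 coding transcript at chr22:28796124-28796149 (GRCh38, minus strand) and in a second at chr22:28796122-28796147, 2 bases away, inside an exon that another coding transcript keeps whole. It is 26 bases long, which leaves a remainder of 2 after division by 3. In the line below the intron of the first is in capitals, with 2 flanking bases on each side.
XBP1 intron: agCACTCAGACTACGTGCACCTCTGCAGca
The deposited table holds 1 value per gene, so spliced and unspliced XBP1 mRNA cannot be told apart in these data.

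The ER stress element, the site at which ATF6 is known to act, reads CCAAT, 9 bases of any kind, then CCACG. It was searched on both strands of RefSeq promoter windows (GRCh38.p14), from 250 bases before to 50 bases after a transcript start, which were given for 9 of the 10 genes (not EIF2AK1). It was found in 27 of 35116 windows (0.08%), belonging to 25 of 27305 genes. XBP1 was the 1 gene of the 9 with a match, from 52 to 34 bases before its start. The 250 bases before that start, chr22:28800570-28800819 (minus strand), are printed with the match in capitals.
XBP1 promoter: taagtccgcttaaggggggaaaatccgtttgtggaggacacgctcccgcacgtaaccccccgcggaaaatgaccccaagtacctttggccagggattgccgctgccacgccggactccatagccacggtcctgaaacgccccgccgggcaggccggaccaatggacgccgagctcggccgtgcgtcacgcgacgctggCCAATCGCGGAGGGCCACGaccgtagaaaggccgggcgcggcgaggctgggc
The same element was found for 4 of the 10 ATF6 targets listed below, the ER chaperone genes HSPA5, HSP90B1 and CALR and the gene CRELD2. They are printed for comparison along the strand of the match, with 8 bases on each side and both ends of the element in capitals.
XBP1, chr22:28800595-28800629: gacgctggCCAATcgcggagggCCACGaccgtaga
HSPA5, chr9:125241383-125241417: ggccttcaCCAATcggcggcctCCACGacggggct
HSP90B1, chr12:103930208-103930242: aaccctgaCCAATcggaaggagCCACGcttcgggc
HSP90B1, chr12:103930313-103930347: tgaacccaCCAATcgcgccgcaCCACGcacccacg
CALR, chr19:12938376-12938410: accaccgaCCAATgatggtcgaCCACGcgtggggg
CRELD2, chr22:49918546-49918580: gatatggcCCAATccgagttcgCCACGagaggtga
Of the other motifs searched, the unfolded protein response element TGACGTG (1.97% of all windows) had no match in the windows of the 9 genes. The amino acid response element core, TGATGNAA (3.62% of all windows), had 1 match, in a second window of CREB3L2, 16 to 23 bases after that start. A match is a run of letters and not a measured binding site.

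CNTNAP4 itself had a single value, a log2 signal of -7.18 in VC replicate 3, so the table gives no fold change that checks the labels. The paper checked the deletion in its KO clones by other means, with qRT-PCR, western blot and an endonuclease assay. The libraries held values for 20333 to 21041 genes. Quantile normalization had given all 6 libraries the same range of log2 signals, -10.87 to 12.04, so the read depth behind a value is unknown. The precision of a fold change was judged from the number of libraries and the spread between them. The mesenchymal markers VIM (10.33 to 10.93) and SPARC (6.46 to 6.95) were high in all libraries. COL1A1 lay at 2.28 to 2.73, RUNX2 at 1.30 to 1.69 and the osteoblast marker ALPL at -1.34 to -0.49, and COL1A2 was low (-5.72 to -4.59). Of these 6 markers 3 were higher and 1 lower in KO at an adjusted p under 0.05 (limma), beside 13.1% and 19.8% of all genes tested. The leukocyte and endothelial markers PTPRC, CD3E, CD14, PECAM1 and CDH5 were below -3 or without a value. Of the epithelial markers CDH1 had 1 value (-8.04), KRT19 was low and EPCAM was lower in KO (log2 fold change -0.67, adjusted p = 0.0157), with a summed linear signal of the 3 markers of 3.08 to 3.51 in VC and 1.91 to 2.34 in KO. The summed linear signal of the 3 leukocyte markers was 0.121 to 0.184 in VC and 0.00719 to 0.0595 in KO. The part of such cells in the results was not tested.

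Of the 10 genes, 7 differed between KO and VC at an adjusted p under 0.05 (limma, Benjamini-Hochberg over all genes tested). XBP1, ERN1, CREB3L2, EIF2AK3 and ATF6B rose, EIF2AK1 and EIF2AK4 fell, and ATF6, CREB3 and CREB3L1 did not pass the test. Among all genes tested 32.9% passed, 13.1% higher and 19.8% lower in KO. That split was 3005 higher to 3233 lower with libraries centred on the median of the genes with 6 values. It turned to 757 higher and 646 lower without VC replicate 1 and to 654 and 569 without VC replicate 3. The median log2 fold change was 0.37 over the 10 genes and -0.13 over all genes tested. In 8 of the 10 genes the KO libraries did not overlap with the VC libraries, against 59.3% of the genes with 6 values. The KO values spread more than the VC values in each of the 10 genes. How common this was among all genes was not counted.

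**Figure D1:**
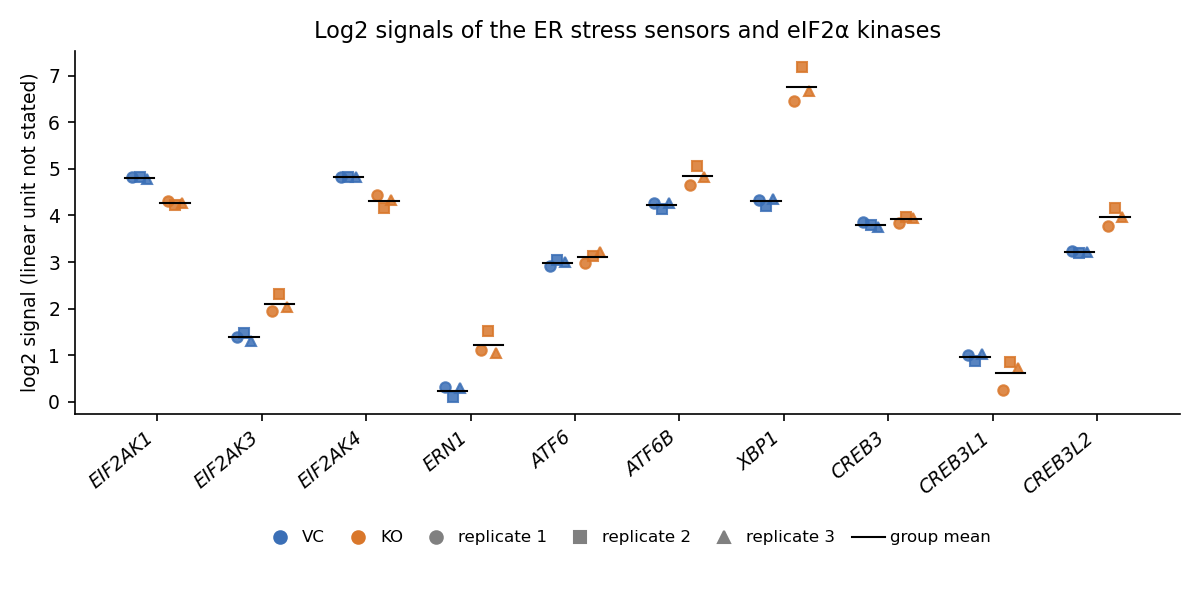
Log2 signal (vertical axis, linear unit not stated) of each of the 10 genes in the 3 VC (blue) and 3 KO (orange) libraries, with the replicate shown by the marker shape and the group mean by a black line. XBP1 sat between 4.21 and 4.36 in VC and between 6.46 and 7.18 in KO, while ATF6 and CREB3 overlapped between the groups. Signals of different genes are not compared, since the unit is unknown.

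The eIF2alpha kinases moved in opposite directions. EIF2AK3, which encodes PERK, had log2 signals of 1.40, 1.48 and 1.31 in VC replicates 1, 2 and 3 and of 1.94, 2.31 and 2.03 in KO replicates 1, 2 and 3. Every KO library was above every VC library, and the signal was 1.62-fold higher (0.70 on the log2 scale, standard error 0.12, adjusted p = 0.0157). EIF2AK4, which encodes GCN2, lay at 4.82 in each VC library and at 4.43, 4.17 and 4.33 in KO. It fell by 0.51 on the log2 scale (standard error 0.088, adjusted p = 0.0161), with a gap of 0.39 between the groups. EIF2AK1, which encodes HRI, read 4.83, 4.82 and 4.79 in VC and 4.31, 4.23 and 4.27 in KO. Here both groups were tight, with SDs of 0.021 and 0.04 (n = 3 each), and the fall of 0.55 (standard error 0.064, adjusted p = 0.0095) was 1.46-fold. The kinase outside the 10 genes, EIF2AK2 (PKR), had log2 signals of 3.43, 3.47 and 3.44 in VC and 3.28, 3.01 and 3.19 in KO, a log2 fold change of -0.29 (adjusted p = 0.0619). So the ER-resident kinase had the higher KO signal and the cytosolic kinases EIF2AK1 and EIF2AK4 the lower.

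Compared within each library, a difference between 2 genes does not move with a shift of the whole library. The log2 signal of EIF2AK3 minus that of EIF2AK4 was higher in every KO library than in every VC library, by 1.20 on average. For EIF2AK3 minus EIF2AK1 the shift was 1.25, again without overlap. For EIF2AK1 minus EIF2AK4 it was -0.04, with KO values of -0.12, 0.06 and -0.06 on both sides of the VC values (exact permutation test, two-sided p = 0.5). In total 8 pairs were compared, and the 7 pairs other than EIF2AK1 and EIF2AK4 had an exact two-sided p of 0.1, the smallest that 3 against 3 libraries allow (0.114 adjusted over the 8 pairs), so this test could not pass 0.05.

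**Figure D2:**
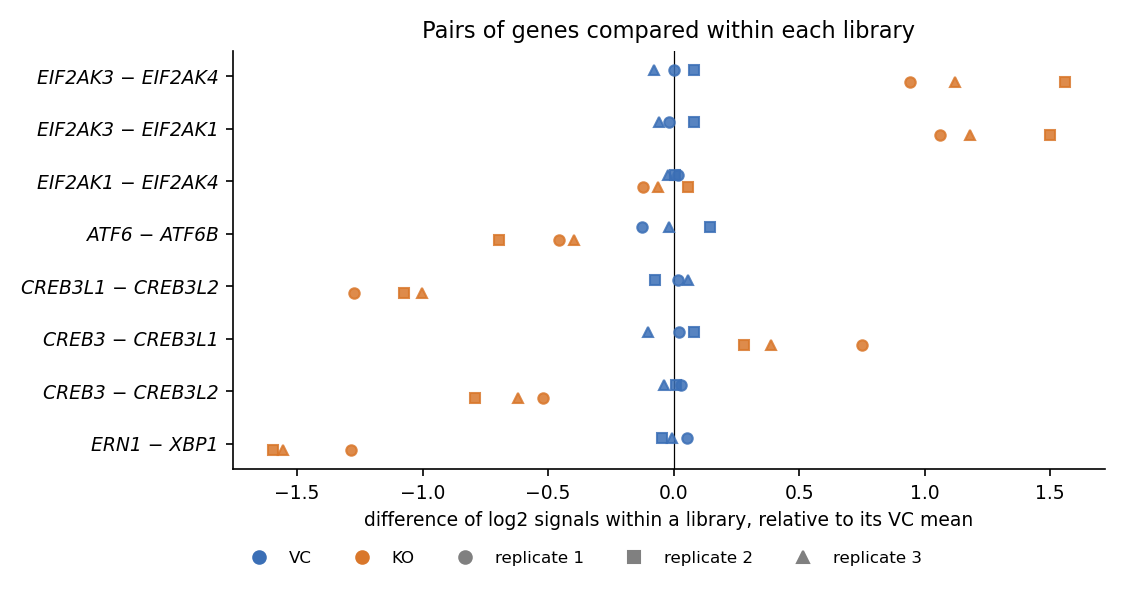
Difference of the log2 signals of 2 genes within a library, minus its mean over the VC libraries (horizontal axis), for 8 pairs of genes, in VC (blue) and KO (orange), with the replicate shown by the marker shape. The KO libraries lay apart from the VC libraries in 7 pairs, and EIF2AK1 minus EIF2AK4 stayed near 0 in both groups.

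ERN1, the gene of IRE1, and XBP1, whose mRNA IRE1 cuts, both rose. XBP1 had log2 signals of 4.33, 4.21 and 4.36 in VC and 6.46, 7.18 and 6.66 in KO. The gap between the groups was 2.10, wider than the range within VC (0.15) or KO (0.72). The log2 fold change was 2.47 (standard error 0.20, 95% confidence interval 1.97 to 2.97, adjusted p = 0.00603), or 5.54-fold. ERN1 read 0.32, 0.10 and 0.30 in VC and 1.11, 1.53 and 1.05 in KO, with every KO value above every VC value. Its log2 fold change was 0.99 (standard error 0.15, adjusted p = 0.0137), or 1.99-fold. The difference ERN1 minus XBP1 within a library was lower in KO by 1.48, with values of -5.35, -5.66 and -5.62 against -4.01, -4.11 and -4.07 in VC. ERN2, the gene of the epithelial IRE1 form, had a single value of -7.72 in KO replicate 2.

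Of the membrane-bound transcription factors, CREB3L2 and ATF6B rose and ATF6, CREB3 and CREB3L1 did not pass the test. CREB3L2 (BBF2H7), known for its role in secretion by cartilage cells, had log2 signals of 3.23, 3.19 and 3.21 in VC and 3.77, 4.16 and 3.97 in KO. The groups lay 0.54 apart, and the log2 fold change was 0.76 (standard error 0.12, adjusted p = 0.0132). ATF6B, the paralogue of ATF6, had 4.27, 4.14 and 4.27 in VC and 4.66, 5.07 and 4.83 in KO. It rose 1.55-fold, by 0.63 on the log2 scale (standard error 0.12, adjusted p = 0.0205). ATF6 itself read 2.91, 3.05 and 3.01 in VC and 2.97, 3.14 and 3.21 in KO. These groups overlapped, and the log2 fold change of 0.11 had a 95% confidence interval of -0.12 to 0.35 (adjusted p = 0.372). Within a library ATF6 minus ATF6B was lower in KO by 0.51, with no overlap between the groups.

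CREB3L1 (OASIS), which takes part in collagen secretion by osteoblasts, had log2 signals of 1.0, 0.88 and 1.02 in VC and 0.26, 0.85 and 0.73 in KO. The groups were separated by only 0.02, and the log2 fold change of -0.35 (95% confidence interval -0.78 to 0.08, adjusted p = 0.165) was -0.17 without KO replicate 1, the lowest library. CREB3 (Luman) had 3.85, 3.79 and 3.76 in VC and 3.84, 3.97 and 3.95 in KO, which overlapped between VC replicate 1 and KO replicate 1. Its log2 fold change was 0.12 (95% confidence interval -0.06 to 0.30, adjusted p = 0.247). Within a library CREB3L1 minus CREB3L2 was lower in KO by 1.11, and the KO values of -3.51, -3.31 and -3.24 lay well under the VC values of -2.22, -2.31 and -2.18. CREB3L4, another member of the family, rose by 0.75 (adjusted p = 0.0194), and CREB3L3 was listed without a value in any library.

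**Figure D3:**
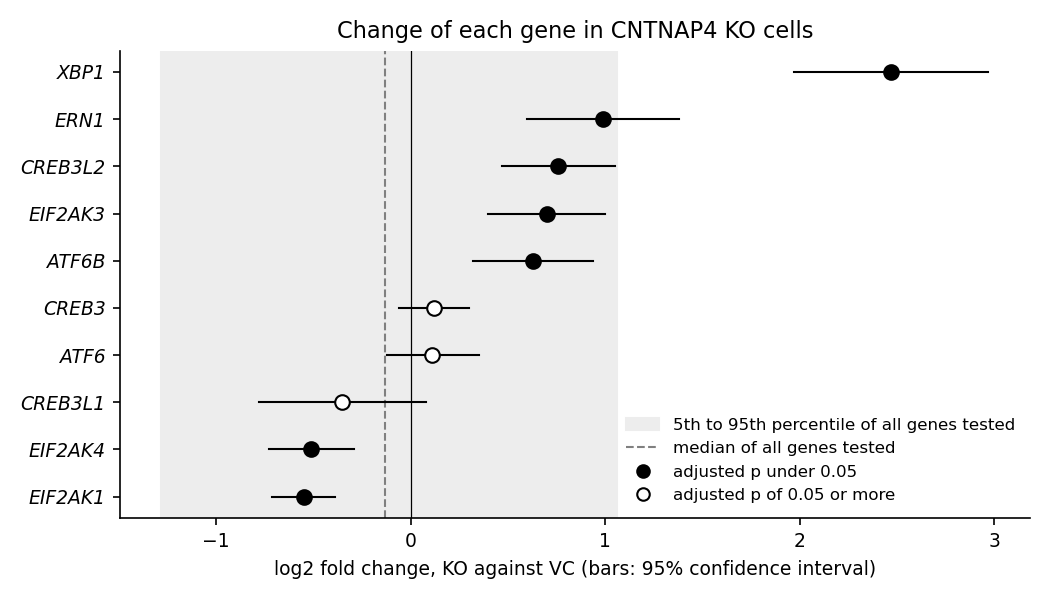
Log2 fold change of KO against VC (horizontal axis) for the 10 genes, with 95% confidence intervals as bars, filled points for an adjusted p under 0.05 and open points for 0.05 or more. The grey band spans the 5th to 95th percentile of all genes tested (-1.28 to 1.06) and the dashed line marks their median of -0.13. XBP1 alone of the 10 lay outside the band.

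The calls were repeated with each library left out. XBP1 and EIF2AK1 kept an adjusted p under 0.05 whichever single library was left out (at most 0.036 and 0.0452). ERN1 lost it without VC replicate 3 (0.0528), CREB3L2 without VC replicate 1 or VC replicate 3 (0.0521 and 0.0547), and EIF2AK3 without VC replicate 1, VC replicate 3 or KO replicate 3 (0.0589, 0.0622 and 0.0502). EIF2AK4 and ATF6B kept it only without KO replicate 1 or KO replicate 2, and otherwise reached up to 0.064 and 0.0675. With a library left out, the log2 fold change lay between 0.59 and 0.77 for EIF2AK3 and between -0.57 and -0.44 for EIF2AK4. It lay between 0.84 and 1.08 for ERN1 and, among the genes that did not pass, between -0.47 and -0.17 for CREB3L1. None of the 10 genes changed sign under any alternative listed in the processing section.

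Among the 7 genes that passed, KO replicate 2 was the library farthest from the VC mean in all 7 and KO replicate 1 the nearest in 6. For XBP1 this ran from 6.46 in KO replicate 1 to 7.18 in KO replicate 2. The order was common in these data: KO replicate 2 was farthest in 75.4% and KO replicate 1 nearest in 74.3% of the 6166 genes with 6 values that passed. Of the 3 genes that did not pass, CREB3 had its highest KO value in replicate 2 (3.97) and ATF6 in replicate 3 (3.21), and CREB3L1 had the opposite order, with replicate 1 (0.26) farthest from VC and replicate 2 (0.85) nearest.

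The genes whose mean-centred log2 signals were most like those of XBP1 over the 6 libraries, by root mean square difference among 9652 genes in the upper 50% of mean signal, were TRIB3 (0.098), RAB39B (0.102) and ROBO4 (0.106). TRIB3, an ATF4 and DDIT3 target, read 3.26, 3.03 and 3.23 in VC and 5.08, 5.95 and 5.41 in KO. For ERN1 the nearest were IER3 (0.05), HCFC1R1 (0.053) and CNTNAP3C (0.059), where CNTNAP3C has close copies in the genome between which reads may have been split. The choice by likeness fixes that these genes changed by about as much as XBP1 or ERN1.

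The positions of the genes, in GRCh38 by GENCODE 29, bear on how their reads could be assigned. EIF2AK3 lies at chr2:88556741-88627576, EIF2AK1 at chr7:6022244-6059230, EIF2AK4 at chr15:39934146-40035591, ERN1 at chr17:64039142-64130819 and XBP1 at chr22:28794555-28800597. ATF6 lies at chr1:161766294-161964070, ATF6B at chr6:32115264-32128253, CREB3 at chr9:35732335-35737004, CREB3L1 at chr11:46277661-46321422 and CREB3L2 at chr7:137874979-138002067. Exons of other genes on the opposite strand covered 15.1% of the exonic bases of EIF2AK3, 10.5% of those of CREB3 and 9.6% of those of EIF2AK1, and same-strand exons covered 9.9% of those of ATF6B. The sources used here do not state whether counting used the strand, so the part of these neighbours in the 4 values was not tested. The other 6 genes had no exonic overlap.

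Each gene was also set beside its 20 nearest genes in the upper 50% of mean signal, 10 on each side. EIF2AK1 (-0.55) had neighbours with a median log2 fold change of -0.38, and EIF2AK4 (-0.51) neighbours with -0.28, against -0.15 and -0.09 for their chromosomes. The neighbours of both kinases that fell thus had medians below those of their chromosomes, and the part of the region in their change was not tested. Of the 5 genes that rose, EIF2AK3 lay among neighbours with a median of -0.20 (chromosome -0.09) and XBP1 among neighbours with 0.21 (chromosome 0.32). The neighbours of ERN1 had -0.12 (chromosome -0.12), those of ATF6B 0.08 (-0.01) and those of CREB3L2 0.02 (-0.15).

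The partners of the sensors and the machinery that processes them were followed as a list of 11 genes, of which 5 rose, 1 fell and 5 did not pass, beside 13.1% higher and 19.8% lower over all genes. HSPA5 (BiP), the chaperone that holds the sensors inactive, had log2 signals of 6.0, 6.03 and 6.02 in VC and 8.51, 9.48 and 9.20 in KO, a log2 fold change of 3.05 (adjusted p = 0.0064). DNAJB9, a co-chaperone that restrains IRE1, rose by 3.13 and the ERAD ligase gene SYVN1 by 1.33. MBTPS1, the site-1 protease that cuts ATF6, rose by only 0.31 (adjusted p = 0.03), and MBTPS2, the site-2 protease, had 0.09 (adjusted p = 0.396). TRAF2, which joins IRE1 to JNK signaling, fell by 0.66 (adjusted p = 0.0393). RTCB, the ligase that rejoins XBP1 mRNA, had 0.19 (adjusted p = 0.0888).

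For the substrate and the regulators of the kinases, 4 of 16 genes rose, 1 fell and 11 did not pass, with a median log2 fold change of 0.06. The 5 that passed are a share near the 32.9% of all genes. EIF2S1, which encodes eIF2alpha itself, had log2 signals of 6.02, 6.13 and 6.02 in VC and 5.52, 5.22 and 5.33 in KO and fell by 0.70 (adjusted p = 0.0123). The other eIF2 subunits EIF2S2 (-0.04) and EIF2S3 (0.24) and the 5 eIF2B subunits (-0.30 to 0.08) did not pass. PPP1R15A (GADD34), the stress-induced subunit of the eIF2alpha phosphatase, rose by 1.46 (adjusted p = 0.00789), and its constitutive counterpart PPP1R15B had 0.18 (adjusted p = 0.105). DNAJC3, an inhibitor of PERK, rose by 1.49, IMPACT, an inhibitor of GCN2, by 0.60, and DELE1, which relays mitochondrial stress to HRI, by 0.65. GCN1, the activator of GCN2 (-0.28), and OMA1, the protease that cuts DELE1 (-0.28), did not pass.

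The target lists of the pathway arms were higher in KO almost throughout, beside 13.1% of all genes. These lists were written with earlier results of these data known, so the counts describe them and are not an independent comparison. All 14 tested ATF4 arm targets rose, with a median log2 fold change of 1.93, from VLDLR (0.72) to DDIT3 (4.34), the gene of the transcription factor CHOP. That list includes ATF4 itself (1.34). NUPR1, the other gene of that list, was without a value in VC and had -5.11, -4.04 and -4.24 in KO. All 10 ATF6 targets rose, with a median of 1.56, among them the ERAD gene HERPUD1 (3.29), the ER co-chaperone gene SDF2L1 (3.59) and the chaperone genes HSP90B1 (1.27) and CALR (1.30). Of 10 XBP1 targets 8 rose, with a median of 1.08, such as EDEM1 (1.10), which takes part in ER-associated degradation, and SEC24D (1.76), a COPII coat gene, while SEC61B (0.14) and SRPRB (0.23) did not pass. Some genes stand in more than 1 list: HSPA5 in that of the partners and that of ATF6, HERPUD1 in those of ATF6 and the CREB3 family, and DNAJB9, SYVN1 and DNAJC3 in an earlier list and that of XBP1. The genes listed as ATF6 targets were higher in KO, while the signal of ATF6 itself overlapped between the groups. The part of each arm in their rise was not tested.

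The 5 genes taken as targets of the CREB3 family were mixed, with 2 higher and 1 lower, beside 13.1% and 19.8% of all genes. HERPUD1 rose, COL1A1 rose by 0.33 (adjusted p = 0.0309), COL1A2 fell by 0.81 from a low level (adjusted p = 0.0161), and SEC23A (-0.27) and ARF4 (0.15) did not pass. Together the lists hold 66 different genes, of which 63 were tested, 39 rose and 3 fell, beside the same shares of all genes. KO replicate 2 was farthest from the VC mean in 39 of the 42 list genes that passed. Over all genes with 6 values that passed, it was farthest in 75.4%. The number that passed was 17 without VC replicate 3 and 50 without KO replicate 1, and between 20 and 33 without each of the other libraries.

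**Figure D4:**
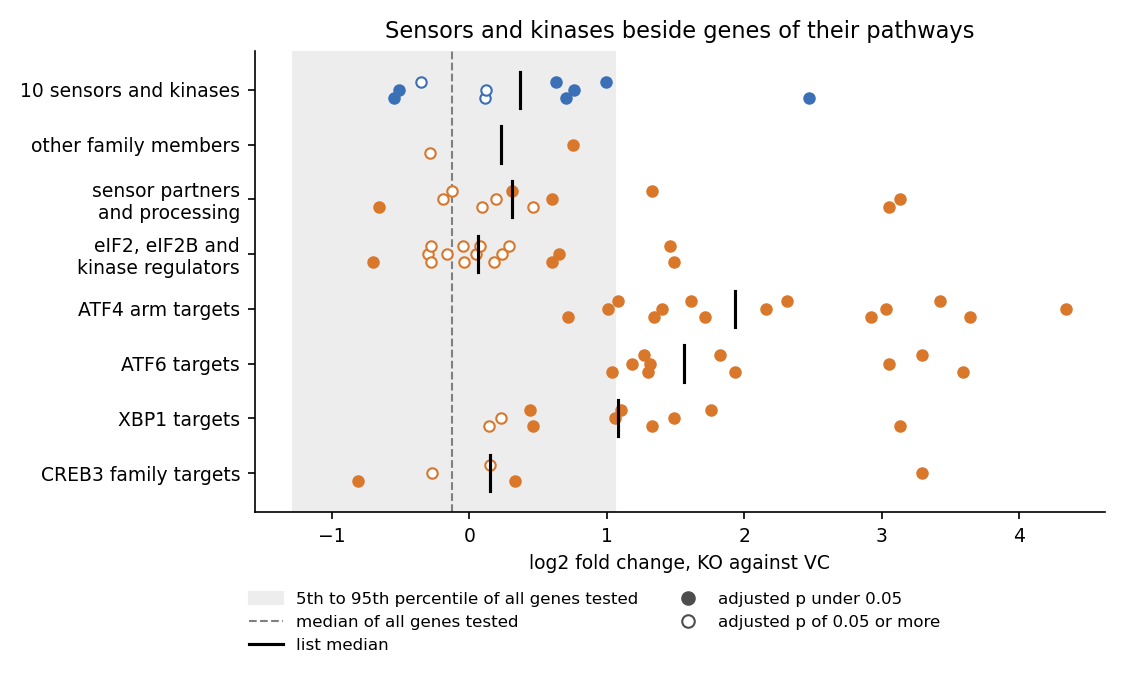
Log2 fold change of KO against VC (horizontal axis) for the 10 sensors and kinases (blue) and for the genes of 7 pathway lists (orange), with filled points for an adjusted p under 0.05, open points for 0.05 or more and a black bar at each list's median. The ATF4 arm and ATF6 targets lay above 0.7 without exception, while the sensors and kinases spread from -0.55 to 2.47.

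The 25 genes with an ER stress element in their promoter window form a set that was defined by sequence. The motif itself was chosen with earlier results of these data known. Of these, 19 were tested, 13 rose and 0 fell, beside 13.1% higher and 19.8% lower over all genes, with a median log2 fold change of 0.95. Without XBP1 and the genes of the lists above, 12 genes were tested, 6 rose and 0 fell, with a median of 0.46 beside -0.13 over all genes.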

How the data were processed

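RNA from VC and KO 143B cells (3 libraries each) had been prepared with a stranded mRNA kit. The submitters' processing notes list CASAVA, STAR, Partek and the build GRCh38.p13, and the methods name CLC Genomics and Partek software. The counting method and annotation are not given in the sources used here. The values the authors deposited are log2 signals of a linear unit that is not stated, after quantile normalization across libraries, with empty cells for genes without a value. Read counts, and so depth, are unknown.

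Groups and columns were matched by the labels. Genes with at least 2 values per group were compared in R 4.3.3 with limma 3.58.1 (linear model, empirical Bayes without trend, no filter on low signals, two-sided), with Benjamini-Hochberg adjustment over all genes tested. The members, lists, motifs and tests were chosen with earlier results of these data known, and lists are given as counts and medians. The text names the 10 genes, genes of the lists, CNTNAP4, and the 3 genes most like each of the 2 members with the largest change. Pairs of genes were compared by an exact permutation test in SciPy 1.17.1. The tests were checked on simulated data. Alternatives were a filter that kept the upper 50% by mean signal, genes with 6 values, libraries centred on the median of those genes, log2 of the signal plus 1, limma's trend and robust options, a replicate block, and each library left out.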

Additional observations from a re-analysis of the deposited data

How the results depend on the processing

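With the replicate number as a replicate block the genes passing the test numbered 1740 in all, 3 among the 10 sensors and kinases (XBP1, EIF2AK1 and EIF2AK3) and 20 in the pathway lists, against 6354, 7 and 42. Deviations of same-numbered libraries from their group means correlated at -0.007 to 0.023 over 17698 genes. KO replicate 3 correlated best with VC replicate 2 (0.031). With 3 libraries per group and no filter on low signals, these correlations cannot decide whether the numbers mark a pairing. With single libraries left out the 3 counts ranged from 1223 to 8669, from 2 to 7 and from 17 to 50, in each case lowest without VC replicate 3. Of 118 values of single genes under the alternatives, 100 remained on their side of the threshold, 18 lost an adjusted p under 0.05 and 0 changed sign. The median of all genes was -0.023 with 1 added to the linear signal, where ATF6 and CREB3 had 0.10 and 0.11, and -0.042 with centred libraries, where both had 0.20. ERN1 and CREB3L1 are not in the upper 50% of mean signal and have no value there. The unknown depth limits what can be said of low signals.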
